A study of Homo sapiens with 6 samples.

Results

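Tubulin genes encode the alpha and beta subunits whose dimers polymerize into microtubules, and 10 of them were followed here by their symbols: TUBA1A, TUBA1B, TUBA1C and TUBA4A for alpha-tubulin, and TUBB, TUBB2A, TUBB2B, TUBB3, TUBB4B and TUBB6 for beta-tubulin. They are 10 of the 27470 gene symbols in the deposited table of read counts. All 10 passed the filter on low counts, which left 12233 genes for testing. RNA came from 22Rv1, an established human line of castration-resistant prostate cancer, engineered to carry ABHD5, the coactivator of the triglyceride lipase ATGL, behind a doxycycline (Dox)-inducible promoter on the pInducer20 lentiviral vector. 3 libraries came from cells grown without Dox (genotype label "control") and 3 from cells grown with Dox ("overexpressing ABHD5"), for 48 h. Both groups carry the integrated vector and were selected with G418, and whether the line is a pool or 1 clone is not stated. The Dox dose of these cultures is not stated. The paper reports a negligible effect of Dox on growth of the parent line, without showing data. RNA of parent cells given Dox is not among these libraries, so effects of Dox and of ABHD5 on RNA cannot be told apart. The labels number the replicates 1 to 3 without saying whether these were separate cultures, so p-values measure the spread between these libraries, which may be technical.

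Cells build microtubules from several tubulin isotypes that are nearly alike in their folded body and differ mostly in the acidic tail at the C-terminus, where most modifying enzymes act. TUBA1B, TUBA1C, TUBB and TUBB4B are widely expressed and supply dividing cells, whereas TUBA1A, TUBB2B and TUBB3 are best known from developing neurons. TUBA1A, TUBB2B and TUBB3 were set apart after their values were seen, and do not stand for all tubulins of neurons. TUBA4A, TUBB2A and TUBB6 are placed in neither group. Cells also hold tubulin mRNA in check by autoregulation: when free dimers accumulate, TTC5 binds the first residues of a tubulin chain as it leaves the ribosome, and the mRNA is then degraded.

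The starts and ends of the coding sequences show what the 10 genes share and where they part, and were read from GENCODE 44 transcripts on hg38. The first 15 coding bases are given for all members, with the 4 codons that specify the start read by TTC5 in capitals. In each alpha gene these codons specify methionine, arginine, glutamate and cysteine, and in each beta gene methionine, arginine, glutamate and isoleucine:
TUBA1A: ATGCGTGAGTGCatc
TUBA1B: ATGCGTGAGTGCatc
TUBA1C: ATGCGTGAGTGCatc
TUBA4A: ATGCGTGAATGCatc
TUBB: ATGAGGGAAATCgtg
TUBB2A: ATGCGCGAGATCgtg
TUBB2B: ATGCGTGAGATCgtg
TUBB3: ATGAGGGAGATCgtg
TUBB4B: ATGAGGGAAATCgtg
TUBB6: ATGAGGGAGATCgtg

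The last 60 coding bases are given for TUBA4A, with the codon before the stop in capitals, since this codon decides whether an alpha chain is made with the terminal tyrosine that carboxypeptidases remove and tubulin tyrosine ligase restores. In TUBA4A it is a glutamate codon:
TUBA4A: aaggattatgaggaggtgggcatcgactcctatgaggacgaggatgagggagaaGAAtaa

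Among the beta genes, the neighbours TUBB2A and TUBB2B are shown with the 2 bases at which they differ in capitals, beside TUBB and TUBB3, the genes that fell and rose most, with their last codon before the stop in capitals:
TUBB2A: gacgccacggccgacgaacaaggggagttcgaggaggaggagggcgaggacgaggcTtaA
TUBB2B: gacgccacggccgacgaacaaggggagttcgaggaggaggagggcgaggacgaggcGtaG
TUBB: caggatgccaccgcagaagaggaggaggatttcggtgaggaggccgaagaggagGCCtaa
TUBB3: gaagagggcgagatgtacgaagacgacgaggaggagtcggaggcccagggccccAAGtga

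The libraries were made with a QuantSeq kit, which primes at the poly(A) tail, so most reads come from the 3ʹ end of a transcript. Between members of the same class, coding identity ran up to 97.20% for TUBA1A and TUBA1B and 98.13% for TUBB2A and TUBB2B, whose longest shared coding runs were 221 and 725 bases. Their 3ʹ untranslated regions shared no run longer than 6 bases and 11 bases, respectively. In the last 300 bases of the transcript, TUBA4A, TUBB2A, TUBB2B and TUBB6 had 0 other matches of at least 100 bases on the chromosomes of hg38. TUBA1A had 2, TUBA1B 2, TUBA1C 26, TUBB 4, TUBB3 1 and TUBB4B 6 such matches. The match to TUBB3 lay at the pseudogene TUBB3P1, over 315 bases with 85.7% identity. The closest to TUBB4B lay at TUBB3, over 116 bases with 96.6% identity. The closest match to TUBA1B lay at TUBA1A, over 124 bases with 97.6% identity. For TUBA1A and TUBB the closest match covered most of the window. It lay at TUBAP14 for TUBA1A, over 272 bases with 94.9% identity, and for TUBB it ran over 293 bases with 94.5% identity. The labels' processing notes list HTSeq, but how reads with several matches were treated is not stated, and the table's own row for reads without a unique match is listed at 0 in all 6 libraries. A split of reads between these 6 genes and their copies is therefore uncertain, which includes TUBB3 and TUBB4B. The 0 matches of TUBB2A and TUBB2B do not settle the split between this pair. The 3ʹ untranslated region of TUBB2A has 197 bases, so its 300-base window takes in coding bases nearly shared with TUBB2B. That stretch is about as long as the 100-base cutoff. The region of TUBB2B has 474 bases, so its window holds no coding bases.

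Totals on genes were 3394672 to 7271771 counts a library, in which 3 counts, taken as the limit of detection, equal 0.413 to 0.884 CPM, counts scaled to a total of 1000000, before normalization. This limit covers counting error only, since reads carry no molecular identifiers. CPM below use library totals after TMM normalization in edgeR, and, as 3ʹ counts do not grow with transcript length, they were not divided by it. ABHD5 itself had 61.4 ± 3.0 CPM without Dox and 116.1 ± 21.3 with Dox (SD, n = 3 each), and its log2 fold change was 0.91. How far 3ʹ reads of the vector's copy were counted on ABHD5 is not stated, so this value may not measure the induction. Reads on no gene made up 32.5% to 34.6% of those listed without Dox and 35.6% to 39.5% with Dox. Of 10 prostate luminal markers all were detected and 6 were lower with Dox, beside 13.7% of all genes tested (summed level 1565 to 1671 CPM without Dox and 991 to 1106 with Dox). Of 7 fibroblast markers 4 had at most 3 counts in each library and of 6 leukocyte markers 4 did (summed levels at most 9.98 and 6.20 CPM). COL1A1, of the fibroblast list, had 2.43 ± 1.09 CPM without Dox and 5.49 ± 2.01 with Dox (SD, n = 3 each), and passed as higher although its libraries overlapped.

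With Dox, 9 of the 10 tubulin mRNAs changed, in both directions. TUBB3, TUBB2B and TUBA1A rose, while TUBB, TUBA1C, TUBB4B, TUBB2A, TUBA1B and TUBA4A fell; TUBB6 did not pass the test. Over all 12233 genes, 25.5% passed the same test (edgeR's quasi-likelihood test, p adjusted by Benjamini-Hochberg over all genes, threshold 0.05), 11.9% higher and 13.7% lower with Dox. These were 1451 and 1674 genes, against 2179 higher and 1136 lower when libraries were scaled by their totals alone. In the same 9 members the 3 libraries with Dox did not overlap the 3 without, against 39.5% of all genes tested. The median log2 fold change of the members was -0.56, beside 0.02 for all genes tested.

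**Figure D1:**
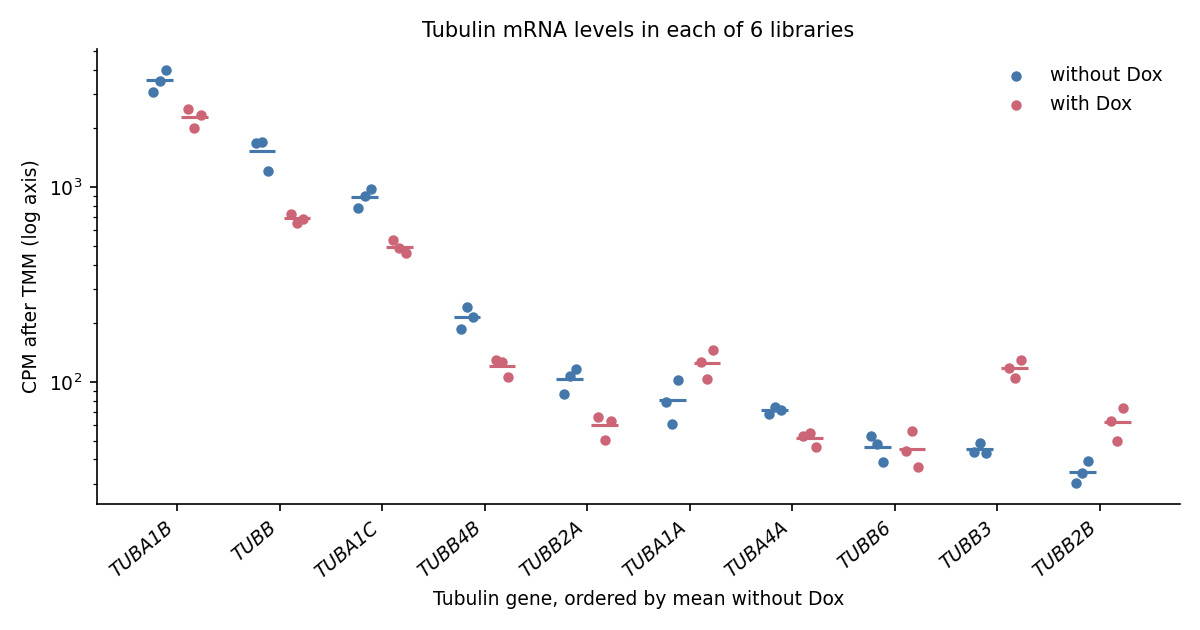
CPM after TMM normalization (log axis) of each tubulin gene in the 3 libraries without Dox (blue) and the 3 with Dox (red); points are libraries and lines are means. The blue and red points overlap in TUBB6 alone, and TUBB3 moves from the low end of the family to the level of TUBB4B.

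Without Dox the order of mean levels was TUBA1B, TUBB, TUBA1C, TUBB4B, TUBB2A, TUBA1A, TUBA4A, TUBB6, TUBB3 and TUBB2B. Libraries of neighbours in this order overlapped for TUBB2A and TUBA1A, TUBA1A and TUBA4A, and TUBB6 and TUBB3. With Dox the order became TUBA1B, TUBB, TUBA1C, TUBA1A, TUBB4B, TUBB3, TUBB2B, TUBB2A, TUBA4A and TUBB6. The levels of TUBA1A, TUBB4B and TUBB3 then overlapped each other, as did those of each neighbouring pair from TUBB2B to TUBB6. The top 3 genes of the family were thus the same in both conditions, and the ranks below them were not.

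TUBB3 encodes class III beta-tubulin, widely used as a neuronal marker. It lies on chromosome 16 of hg38 from 89921392 to 89938761, with 4 exons in its canonical transcript. TUBB3 had 168, 156 and 248 counts without Dox and 542, 377 and 986 counts with Dox, or 43.9, 48.4 and 43.3 CPM against 117.9, 104.9 and 129.5 CPM. The lowest library with Dox was above the highest without Dox. The mean rose from 45.2 ± 2.78 to 117.4 ± 12.3 CPM (SD, n = 3 each), with a fitted fold of 2.61, or a log2 fold change of 1.39 (standard error 0.14, edgeR adjusted p = 8.368e-07). The terminal exon of TUBB3 shares 1364 bases with a readthrough gene model of the same strand that has no row under its own name in the table.

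TUBB2B encodes a beta-tubulin of the developing brain and lies on chromosome 6 from 3223324 to 3231730. Its CPM were 30.3, 34.1 and 39.3 without Dox and 62.9, 49.8 and 73.8 with Dox, from 110 to 225 and 179 to 562 counts. Each library with Dox exceeded each without. The log2 fold change was 0.85 (standard error 0.17, edgeR adjusted p = 0.00109), a fitted fold of 1.8.

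TUBB2A, whose product is nearly the same protein as that of TUBB2B, lies on the same arm of chromosome 6 from 3153497 to 3157544. TUBB2A had 86.2, 106.7 and 116.1 CPM without Dox and 66.1, 50.4 and 63.2 CPM with Dox. All libraries with Dox were below those without, opposite to TUBB2B. Its mean fell from 103.0 ± 15.3 to 59.9 ± 8.37 CPM (SD, n = 3 each), with a log2 fold change of -0.78 (standard error 0.15, edgeR adjusted p = 8.297e-04). Within each library, the log2 ratio of TUBB2B to TUBB2A counts was -1.51, -1.65 and -1.56 without Dox and -0.07, -0.02 and 0.22 with Dox. This ratio was chosen after the values were seen and was not tested. The genes thus moved from a clear excess of TUBB2A to about equal counts. With their counts summed into 1 row, the log2 fold change of the pair was -0.17 (edgeR adjusted p = 0.430).

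The 250 bases upstream of each RefSeq start (GRCh38.p14, minus strand) are shown because this pair, with nearly the same coding sequence, moved in opposite directions; they shared no run over 11 bases, and global alignment gave 52.5% identity. Capitals mark CCAAT, which NF-Y binds, and TATAAA, a core promoter element. Both were searched on either strand, and CCAAT reads ATTGG where it lies on the opposite one. Only exact matches were marked, so the similar cataaa near the end of the TUBB2B window is in lower case. TUBB2A, chr6:3157545-3157794, holds 1 TATAAA and no CCAAT, and TUBB2B, chr6:3227654-3227903, holds 1 CCAAT and no TATAAA:
TUBB2A: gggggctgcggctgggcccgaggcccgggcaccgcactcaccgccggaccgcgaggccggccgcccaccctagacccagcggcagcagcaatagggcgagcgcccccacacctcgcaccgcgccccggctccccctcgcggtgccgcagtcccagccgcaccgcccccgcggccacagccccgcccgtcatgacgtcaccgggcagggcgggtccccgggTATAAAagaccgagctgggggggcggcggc
TUBB2B: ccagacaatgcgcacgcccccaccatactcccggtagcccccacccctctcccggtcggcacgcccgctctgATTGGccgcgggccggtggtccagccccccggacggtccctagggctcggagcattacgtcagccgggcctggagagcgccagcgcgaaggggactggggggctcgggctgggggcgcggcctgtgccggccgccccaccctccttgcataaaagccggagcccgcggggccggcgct

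Over the 35116 RefSeq windows of 250 bases, 32.0% held CCAAT and 10.7% held TATAAA. For each member 1 RefSeq start was searched, and other starts were not. Some of these windows lie within the span of the gene, such as those of TUBB2B and of TUBA1C (chromosome 12, 49227676 to 49227925). Of the 10 members, 5 had CCAAT upstream of that start: TUBA1A and TUBB2B, which rose, and TUBB, TUBA1C and TUBB4B, which fell. TTTGAA, the core of a cell cycle element of mitotic genes, was present on either strand upstream of 2 members, TUBA1C and TUBB4B, and in 13.3% of all windows. TTTAAA, a variant of that core that reads alike on both strands, was in 0 members and 11.3% of windows.

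TUBA1A, the main alpha-tubulin gene of young neurons, lies on chromosome 12 from 49184686 to 49189080. TUBA1A had 79.2, 60.5 and 102.1 CPM without Dox and 125.9, 103.8 and 146.2 CPM with Dox. The groups did not overlap, although the lowest library with Dox lay only just above the highest without. The mean rose from 80.6 ± 20.9 to 125.3 ± 21.2 CPM (SD, n = 3 each), with a log2 fold change of 0.63 (standard error 0.17, edgeR adjusted p = 0.0116). The call was lost when replicate 1 of the cells without Dox was left out (0.60, edgeR adjusted p = 0.0540) and when their replicate 2 was (0.46, edgeR adjusted p = 0.0651). Summed with TUBA1B and TUBA1C, the 3 genes had a log2 fold change of -0.63 (edgeR adjusted p = 0.00304), since TUBA1B holds most of the counts.

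TUBA1B, the most abundant tubulin mRNA here and 14th of all genes by mean CPM, lies on chromosome 12 from 49127782 to 49131397. Its CPM were 3078, 3513 and 3990 without Dox and 2514, 2002 and 2349 with Dox. The highest library with Dox was below the lowest without. TUBA1B fell from a mean of 3527 ± 456 to 2288 ± 262 CPM (SD, n = 3 each), with a log2 fold change of -0.62 (standard error 0.14, edgeR adjusted p = 0.00340).

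TUBA1C, a widely expressed alpha gene on chromosome 12 from 49188736 to 49274600, had 778, 902 and 979 CPM without Dox and 538, 485 and 458 CPM with Dox. The gap between the groups was wider than the spread within either. Its log2 fold change was -0.85 (standard error 0.13, edgeR adjusted p = 1.255e-04). TUBA1A and TUBA1C overlap at their starts on opposite strands, but no exon of either gene reaches the terminal exon of the other.

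TUBA4A, the alpha gene whose last codon is shown above, lies on chromosome 2 from 219249710 to 219277902. TUBA4A had 68.4, 74.4 and 71.9 CPM without Dox and 53.1, 54.5 and 46.1 CPM with Dox, again without overlap. Its fall was the smallest that passed, with a log2 fold change of -0.49 (standard error 0.14, edgeR adjusted p = 0.0131), and it was not past the threshold when libraries were scaled by their totals alone (-0.37, adjusted p = 0.0511). The terminal exon of TUBA4A shares 628 bases with exons of STK16 on the opposite strand, and whether reads were counted by strand is not stated. The same limit holds for TUBA1B, TUBA1C, TUBB and TUBB4B, whose terminal exons share 1098, 637, 538 and 124 bases with opposite-strand gene models. The models at TUBA1B, TUBA1C and TUBB have no counts of their own. STK16 had a log2 fold change of -0.36 that did not pass (edgeR adjusted p = 0.123).

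TUBB, the class I beta-tubulin of most dividing cells, lies on chromosome 6 from 30717435 to 30725538. Its CPM were 1678, 1707 and 1214 without Dox and 729, 653 and 687 with Dox. Replicate 3 without Dox lay below the other two of its group, and still well above each library with Dox. The mean fell from 1533 ± 277 to 689.7 ± 38.0 CPM (SD, n = 3 each), with a fitted fold of 2.22, and the log2 fold change was -1.15 (standard error 0.14, edgeR adjusted p = 1.413e-05).

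TUBB4B, a widely expressed beta gene that is also used in cilia, lies on chromosome 9 from 137241287 to 137243707. TUBB4B had 186.2, 242.5 and 215.4 CPM without Dox and 130.0, 125.8 and 105.5 CPM with Dox. The groups were again apart. Its log2 fold change was -0.84 (standard error 0.14, edgeR adjusted p = 1.952e-04), close to that of TUBA1C.

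TUBB6, a beta gene of non-neuronal tissues on chromosome 18 from 12307669 to 12344320, was the exception. It had 52.8, 48.1 and 38.6 CPM without Dox and 44.4, 55.7 and 36.5 CPM with Dox, so the groups overlapped. Its log2 fold change of -0.04 (standard error 0.17, edgeR adjusted p = 0.902) moved between -0.20 and 0.11 with single libraries left out, and was 0.08 when libraries were scaled by their totals alone.

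**Figure D2:**
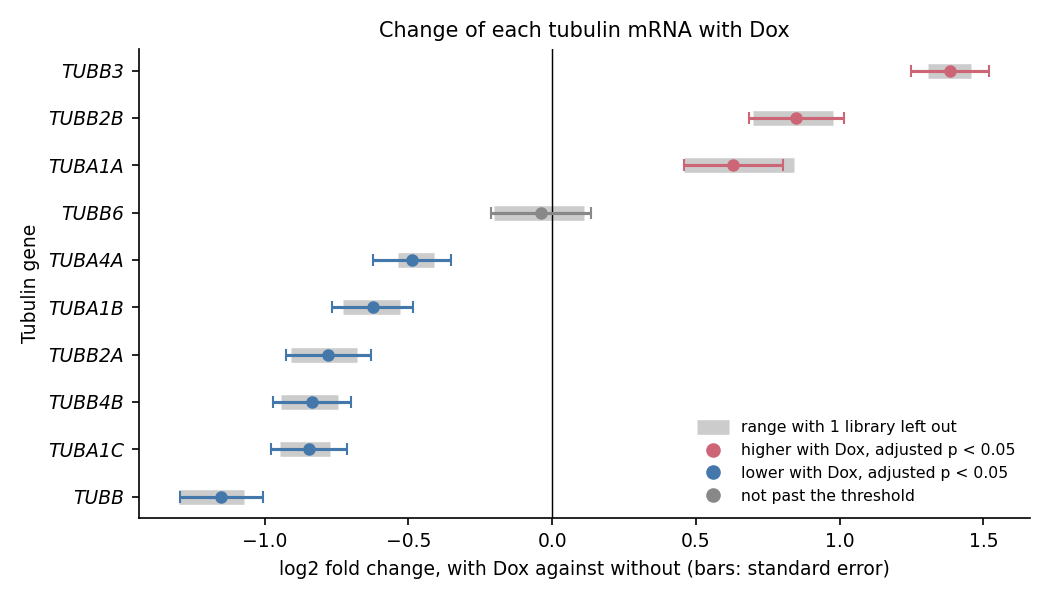
Fitted log2 fold change of each tubulin gene with Dox (points) with its standard error (bars), and the range of fits that each left out 1 library (grey). The changes run from -1.15 for TUBB to 1.39 for TUBB3, and only the grey band of TUBB6 includes 0.

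As TUBA1B, TUBB and TUBA1C held most of the counts, tubulin mRNA as a whole was lower with Dox. The 10 members summed to 6081, 6737 and 6809 CPM without Dox and 4381, 3684 and 4095 CPM with Dox. The alpha genes summed to 4566 ± 570 CPM without Dox and 2958 ± 295 with Dox, and the beta genes to 1977 ± 274 and 1095 ± 55.2 CPM (SD, n = 3 each). In bulk RNA, fewer cells that express a gene and less of its RNA in each cell cannot be told apart. The ratio of alpha to beta counts was 1.93, 2.08 and 3.09 without Dox and 2.81, 2.54 and 2.74 with Dox, which overlapped.

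The composition of the beta pool shifted more than that of the alpha pool. TUBB3 made up 2.11%, 2.21% and 2.60% of beta counts without Dox and 10.3%, 10.1% and 11.8% with Dox. TUBB2B went from 1.79% ± 0.49 to 5.67% ± 0.99 of beta counts, and TUBB from 77.2% ± 4.03 to 63.0% ± 0.36 (SD, n = 3 each). TUBB6, whose own level did not pass the test, also gained share without overlap, from 2.35% ± 0.17 to 4.18% ± 1.05 (SD, n = 3 each). TUBB4B and TUBB2A kept overlapping shares, at 10.99% ± 1.98 and 5.33% ± 1.46 without Dox and 11.01% ± 1.26 and 5.45% ± 0.53 with Dox. Among alpha counts TUBA1B stayed at 77.2% ± 0.35 without Dox and 77.3% ± 1.40 with Dox, TUBA1C went from 19.4% ± 0.40 to 16.7% ± 1.53, and TUBA1A from 1.76% ± 0.38 to 4.23% ± 0.56 (SD, n = 3 each). TUBA1A, TUBB2B and TUBB3, grouped after their values were seen, made up 2.52%, 2.12% and 2.71% of all tubulin counts without Dox and 7.0%, 7.02% and 8.54% with Dox. These shares describe the same counts as the fold changes and were not tested.

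**Figure D3:**
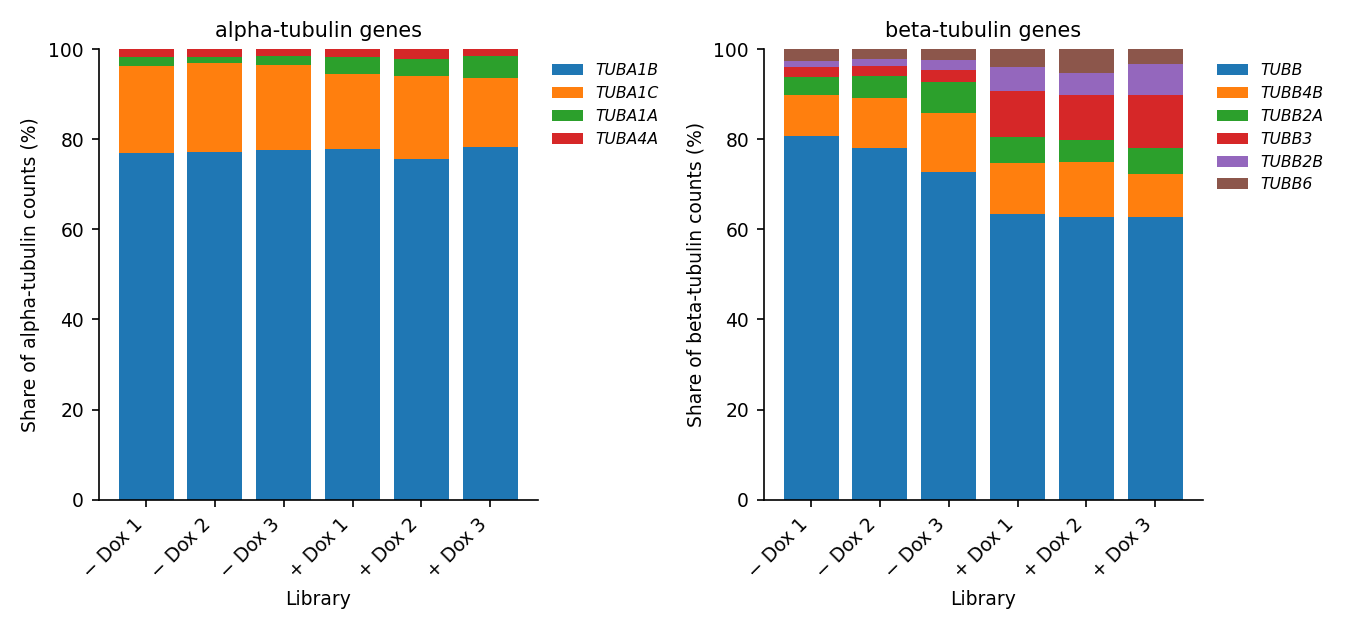
Share of alpha-tubulin counts (left) and beta-tubulin counts (right) held by each gene, in percent, in the 3 libraries without Dox and the 3 with Dox. TUBA1B keeps about the same share of alpha counts in all libraries, while TUBB gives way to TUBB3, TUBB2B and TUBB6 among beta counts with Dox.

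Because the genes that rose are known from neurons, 16 neuronal and neuroendocrine markers are given beside them. The genes that rose were grouped after their values were seen, and TUBB2A, whose product is nearly that of TUBB2B, fell. CHGB and SYP, of secretory granules and synaptic vesicles, were higher with Dox, with log2 fold changes of 0.92 and 0.79 (edgeR adjusted p = 4.886e-04 and 0.00147), and SNAP25 and ENO2 did not pass. The 2 that rose were thus of only 4 tested, beside 11.9% of all genes tested that were higher. The other 12 were not tested, and 9 of these had at most 3 counts in each library, among them the defining CHGA, INSM1, NEFL and DCX, which were at 0. The summed level of the 16 was 187 to 234 CPM without Dox and 247 to 281 CPM with Dox. Their part in the rise of TUBB3, TUBB2B and TUBA1A was not tested.

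Most other genes of the tubulin superfamily were too low to be tested. Of 12 listed, 4 passed the filter, and 1 of them, TUBG2, was higher with Dox (25% called, beside 25.5% of all genes tested). TUBG2, a minor gamma-tubulin, went from 6.08 ± 1.46 to 10.5 ± 2.14 CPM (SD, n = 3 each, log2 fold change 0.84, edgeR adjusted p = 0.0344). This call was lost when replicate 1 or 3 of the cells without Dox, or replicate 3 of those with Dox, was left out (edgeR adjusted p = 0.0834, 0.166 and 0.140). TUBG1, the main gamma-tubulin that nucleates microtubules, had 126.4 ± 12.3 CPM without Dox and 99.1 ± 15.7 with Dox (log2 fold change -0.34, edgeR adjusted p = 0.0819) and reached the threshold in 1 of 14 alternatives, the one that left out replicate 3 with Dox (-0.44, edgeR adjusted p = 0.0343). TUBA3C and TUBB8 had 0 counts in all libraries, below a limit of 3 counts in each. TUBA3D, an alpha gene of the testis, had 5, 5 and 10 counts without Dox and 0, 0 and 1 with Dox, too few for the filter. TUBB1, the beta-tubulin of platelets, had 3 to 22 counts a library. Of the pseudogene symbols in the table, TUBBP5 had 33.1 ± 2.33 CPM without Dox and 43.97 ± 1.90 with Dox (SD, n = 3 each, log2 fold change 0.41, edgeR adjusted p = 0.0501). TUBA3FP had 2.30 ± 0.48 and 2.85 ± 1.17 CPM and did not pass, and TUBA4B, a gene model that overlaps TUBA4A, had 0 counts in all libraries.

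New tubulin chains are folded by the chaperonin CCT with prefoldin, and are joined into dimers by the cofactors TBCA to TBCE with ARL2. Of 22 such genes tested, 4 fell and 0 rose, with a median log2 fold change of -0.20. The share that fell was 18.2%, beside 13.7% of all genes. The CCT subunits TCP1, CCT6A and CCT5 fell by 0.50, 0.45 and 0.43 on the log2 scale (edgeR adjusted p = 0.00585, 0.0115 and 0.0124), as did ARL2 (-0.49). The 18 others included all 5 cofactors. Leaving out replicate 1 of the cells without Dox gave a count of 2, and with libraries scaled by their totals alone it was 2, with 1 higher and 1 lower. The CCT6A call was lost when replicate 1 with Dox was left out, and the CCT5 call when replicate 1 of either condition was.

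TTC5, which reads the coding starts shown above, had 31.7 ± 3.56 CPM without Dox and 27.4 ± 4.32 with Dox (SD, n = 3 each, log2 fold change -0.20, standard error 0.17, edgeR adjusted p = 0.434). Of the 12 genes that encode TTC5, SCAPER and the CCR4-NOT deadenylase, 1 rose and 2 fell, with a median of -0.11. That is 25% of the list, near the 25.5% of all genes tested, and each of these 3 calls was lost in at least 1 alternative. The deadenylase subunit gene CNOT6L rose by 0.41 on the log2 scale and CNOT11 and CNOT1 had -0.47 and -0.35 (edgeR adjusted p = 0.0205, 0.0164 and 0.0477). CNOT1 kept its call in 2 of 14 alternatives. The count was 0 when replicate 2 of the cells without Dox or replicate 1 of those with Dox was left out, and 1 when replicate 1 without Dox was. CNOT6L lost its call in each of these 3 fits, and CNOT11 in the first pair.

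Tubulin chains are modified after synthesis, mostly on their tails. Of 25 such enzymes listed, 18 were tested, 1 rose and 2 fell (16.7%, beside 25.5% of all genes), with a median log2 fold change of -0.22. With libraries scaled by their totals alone or by upper quartiles, 2 were higher and 0 lower. TTLL1, the catalytic subunit of a polyglutamylase of tubulin tails, rose from 1.18 ± 0.34 to 4.10 ± 0.92 CPM (SD, n = 3 each), a low level, with a log2 fold change of 1.81 (standard error 0.43, edgeR adjusted p = 0.00470). TTLL12 and TTLL4, of the same enzyme family, had -0.52 and -0.58 (edgeR adjusted p = 0.0336 and 0.0355), and both lost the call when replicate 1 of either condition was left out, which brought the count to 1. They also lost it without replicate 3 with Dox and under both of these scalings, and TTLL4 without replicate 2 without Dox and with DESeq2 as well. TTL, the ligase that restores the terminal tyrosine, had 52.7 ± 3.66 CPM without Dox and 40.6 ± 5.92 with Dox (SD, n = 3 each), and its log2 fold change of -0.39 did not pass (edgeR adjusted p = 0.0715), although it did when replicate 2 with Dox was left out (-0.49, edgeR adjusted p = 0.0311) and with the replicate number as a block (-0.39, edgeR adjusted p = 0.0431).

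Proteins that bind, track or sever microtubules moved in both directions. Of 45 listed, 38 were tested, 11 rose and 8 fell (50% called, beside 25.5% of all genes), with a median log2 fold change of 0.05. The split was 11 higher and 3 lower with libraries scaled by their totals alone, and 11 and 4 with upper quartiles. MAP4, the main structural microtubule-associated protein outside neurons, rose from 288.7 ± 36.99 to 551.0 ± 44.6 CPM (SD, n = 3 each, log2 fold change 0.93, edgeR adjusted p = 5.082e-05). MAP1A, a neuronal one, rose by 1.27 and MAPRE2, a plus-end tracking protein, by 0.76 on the log2 scale. STMN1, which holds tubulin dimers and favours disassembly, fell from 1586 ± 88.9 to 835.2 ± 53.4 CPM (SD, n = 3 each, log2 fold change -0.93, edgeR adjusted p = 3.112e-05). TPPP3, of the family that promotes tubulin polymerization, had the deepest fall of the list, to 7.87 ± 1.28 from 51.3 ± 11.2 CPM (log2 fold change -2.73, edgeR adjusted p = 4.153e-08). EML4 had -0.60 and lost its call when replicate 3 of the cells without Dox or replicate 1 of those with Dox was left out. Of cells without Dox, leaving out replicate 1 brought the count of 19 to 11 and replicate 2 to 12, and leaving out replicate 1 with Dox brought it to 12.

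Microtubules are nucleated by gamma-tubulin rings, which augmin recruits to existing microtubules in the spindle. Of 20 gamma-tubulin ring and augmin genes tested, 1 rose, the TUBG2 above, and 4 fell, with a median log2 fold change of -0.22. These calls are 25% of the list, near the 25.5% of all genes. The augmin genes HAUS7 and HAUS8 had -1.11 and -0.79 and the ring gene TUBGCP3 had -0.66 (edgeR adjusted p = 1.527e-04, 0.00116 and 5.841e-04). Of 21 spindle assembly genes tested, 18 fell and 0 rose (85.7% lower, beside 13.7% of all genes), with a median of -0.83. The changes of TUBA1C, TUBB4B and TUBB2A were close to this median, whereas TUBB had -1.15, TUBA1B -0.62 and TUBA4A -0.49. KIF4A, a motor of mitotic chromosomes, PRC1, which bundles midzone microtubules, and TACC3, which stabilizes spindle fibres, had -1.17, -1.02 and -1.05 (edgeR adjusted p = 1.047e-05, 2.684e-05 and 2.892e-05). Their part in the fall of the abundant tubulin genes was not tested.

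**Figure D4:**
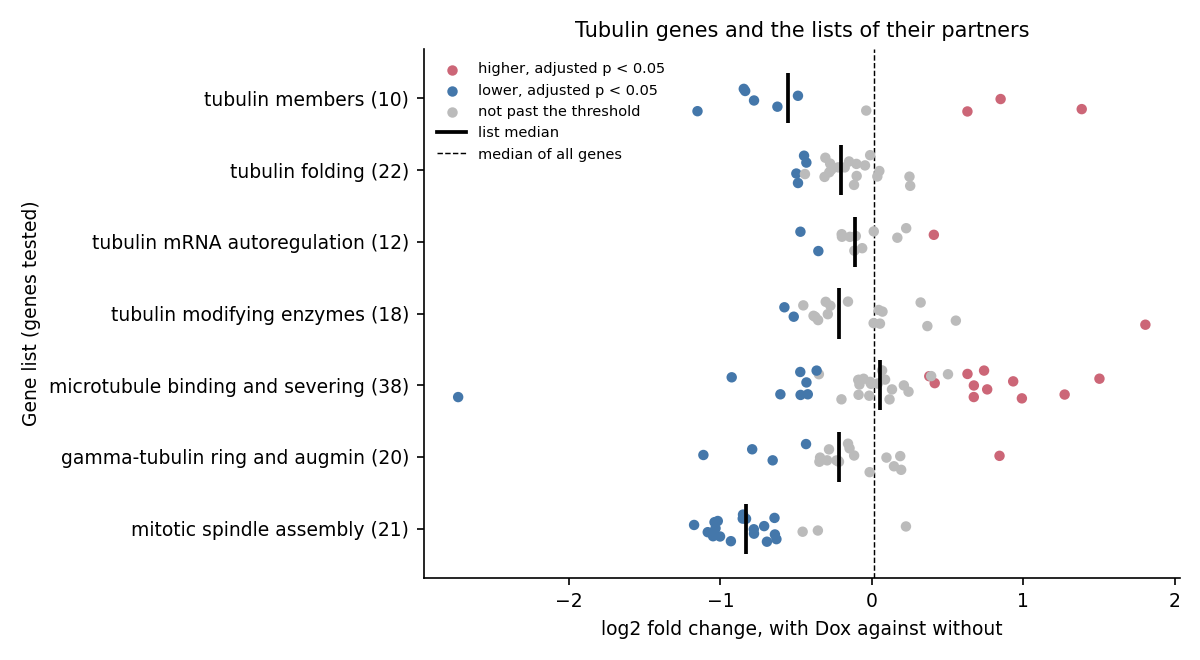
Log2 fold change with Dox of the tubulin genes and of the genes in 6 lists of their partners; each point is a gene tested, coloured by its call, with the list median as a bar and the median of all genes tested (0.02) as a dashed line. Spindle assembly genes lie on the left with a median of -0.83, while tubulin genes and microtubule-binding genes spread to both sides.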

How the data were processed

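The authors prepared QuantSeq 3ʹ mRNA libraries (REV kit in the paper, FWD kit in the labels), demultiplexed the reads with CASAVA 1.8.2 and mapped them to hg38 with STAR; the submitters' processing notes also list FastQC, HTSeq and edgeR. Annotation and strand setting are not given in the sources used here. The authors deposited raw counts per gene symbol for 6 libraries, which were used throughout, and a normalized signal per library, scaled to totals of 5475936 to 5805394 by a method that is not stated, which served as an alternative (27 of 27475 rows, whose names differed, were left out). Library sizes and tests left out the 5 rows without a gene name, which held 32.5% to 39.5% (no gene) and 3.05% to 3.37% (ambiguous) of the listed reads.

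Counts were tested with edgeR 4.0.16 (R 4.3.3; filterByExpr, TMM, quasi-likelihood test, adjusted over all genes). Alternatives used DESeq2 1.42.0, limma 3.58.1 with log2(signal + 1), other scalings and filters, a replicate block, summed paralogs and single libraries left out. On simulated counts of 12233 genes with these library sizes, the test found 75% of 2-fold and 94% of 4-fold changes, and 6.11% of its calls were false. There 100 genes changed 2-fold and 100 changed 4-fold, as many up as down. Far more genes passed in the data, so these rates need not hold for their calls. Each pair of replicates differed by more than counting noise (chi-square per degree of freedom 4.07 to 11.3). Members and lists were chosen with earlier results of these data known. All 10 members were named; in each list, up to 3 called genes a direction, by lowest adjusted p, with TTC5, TTL, STMN1, TUBG1 and ABHD5. The upstream windows and the ARL2, STK16, TUBA3D and TUBB1 values were added after values were seen. Lists were compiled by hand; 1 gene was found under an older symbol. Coordinates are those of GENCODE 44, and 3ʹ ends were aligned to hg38 with minimap2 2.31. Some marker genes and coding ends are not reported here.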

Additional observations from a re-analysis of the deposited data

How the results depend on the processing

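Of the 9 members past the threshold, 7 (TUBA1B, TUBA1C, TUBB, TUBB2A, TUBB2B, TUBB3 and TUBB4B) kept their direction and call in the 14 alternatives that sum no genes, and TUBB6 stayed outside it; TUBA1A and TUBA4A lost theirs in the settings given above. The number of members past the threshold was 8 to 9 in those alternatives. Summed with its close copies, TUBA1A reversed to -0.63 and TUBB2B to -0.17, and TUBB2A weakened to the same -0.17, by construction. Fits without single libraries gave 2181 to 3112 genes in all, 8 to 9 members, 0 to 1 of the other tubulins, 2 to 4 folding genes, 0 to 3 autoregulation genes, 1 to 4 modifying enzymes, 11 to 16 binding and severing genes, 4 to 7 nucleation genes and 18 to 19 spindle genes. The other tubulins past the threshold were 0 with DESeq2, 0 with the deposited normalized values and 2 without a filter. Under library totals alone, folding genes were 2 and autoregulation genes 1; there the median over all genes was 0.14 (log2) against 0.02, and 2179 genes were higher and 1136 lower, against 1451 and 1674. Under upper-quartile scaling they were 1748 and 1394. The cause was not tested.

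Libraries with the same number were not treated as pairs, since the labels do not say whether they are. Correlations of their deviations (-0.01, 0.25 and 0.09) cannot settle this. With a replicate block, 3537 genes, 9 members and 5 modifying enzymes passed, against 3125, 9 and 3 without it. In 7 alternatives added after the data were seen, the difference in share of all tubulin counts (with minus without Dox) kept its sign for TUBA1A, TUBA1B, TUBB, TUBB2B and TUBB3. For TUBA1B, whose groups overlap, it went from 2.58 points to 0.995 without replicate 1 without Dox and 4.98 without replicate 3 without Dox, and for TUBB from -6.54 to -4.53 and -9.42 in the same fits. Genes of about 1 to 5 CPM, such as TTLL1, rest on few counts.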
